A study of Mus musculus with 6 samples.

Results

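The heat shock protein and J-domain protein genes of ependymal cells were taken by gene symbol. The symbols of HSP90, HSP70, HSP110, small heat shock proteins, HSP60 and HSP10, the J-domain families Dnaja, Dnajb and Dnajc, the subunits of the chaperonin CCT (Tcp1 and the Cct genes), Bag1 to Bag6 and St13 were included. Hspb11, Hspa5, Hsp90b1, Dnajb9 and pseudogene symbols were left out. This gave 85 of the 47643 genes in the deposited tables. The rule used symbols only, but it was set with earlier results of these data known. Most products of these genes work in the cytosol, but the symbols also take in proteins of mitochondria (Hspd1, Hspe1, Hspa9, Dnajc15, Dnajc19) and of the endoplasmic reticulum (Dnajc3, Dnajb11), which are described as such.

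Chaperones bind unfolded or partly folded proteins and release them to fold. HSP70 does this in cycles of ATP binding and hydrolysis: J-domain proteins bring it a client and switch on its ATPase, nucleotide exchange factors of the HSP110 and BAG families reset it, and HSP90 takes over late folding steps of many clients. CCT is a closed barrel that folds tubulin and actin. Some of these genes, such as Hspa8 and Hsp90ab1, are textbook constitutive forms, while Hspa1a, Hspa1b, Hspb1 and Dnajb1 are known targets of heat shock factor. In multiciliated cells chaperones have further known work, since axonemal dynein arms are assembled in the cytoplasm with the help of HSP90, HSP70 and their partners.

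The cells were taken from the lining of the brain ventricles of adult mice, the ventricular-subventricular zone. All mice had been given tamoxifen, and GFP-expressing ependymal cells were isolated by flow cytometry 2 days later with a gate set by eye against wild-type cells. The 3 samples labelled CKO carry the tamoxifen-induced deletion of Ccn1, a secreted matricellular protein, in ependymal cells, and the 3 samples labelled CTR are the controls. The Cre driver, the alleles of either group, the sex of the mice and whether a sample pools mice are not stated in the labels. The labels describe the material as cytoplasmic RNA in one field and total RNA in another. Since nothing says that the samples of a group are separate animals, p-values measure only the spread between these samples.

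Each library held 13401499 to 15689579 estimated counts. The deleted gene, listed under its older symbol Cyr61, was at 18 TPM in CKO and 85.3 TPM in CTR, and every CKO library was below every CTR library. TPM is the deposited abundance, in which counts are divided by transcript length and scaled to a common total. All 9 ependymal markers were above 0 in all 6 libraries and summed to 22690 ± 381 TPM in CKO and 23139 ± 2486 TPM in CTR (SD, n = 3 each), although Foxj1, a defining transcription factor, was at a mean of only 13.9 TPM. Of 5 endothelial markers, 4 were at 0 in all 6 libraries and the list's sum rounded to 0.0 TPM in each. Other lists were not empty. Their sums ranged over the 6 libraries from 301 to 949 TPM for choroid plexus markers (Ttr from 0.3 to 520.3 TPM), 215 to 400.3 TPM for mural and fibroblast markers (nearly all Acta2), 197 to 428 TPM for neuron markers (nearly all Ppp1r1b), 1176 to 1614 TPM for astrocyte and stem cell markers, 29.1 to 110 TPM for oligodendrocyte markers and 16.3 to 50.4 TPM for microglia markers, and in each of these lists the groups overlapped. Library CTR 1 stood apart from the rest on the first principal component (227, against -52.5 to -40.5 in the other 5), and CTR 3 on the second. CTR 1 and CTR 3 had the highest total counts but the fewest genes with a count (12428 and 12989, against 13666 to 14496 elsewhere). Chaperone genes above 0 numbered 65 and 69 there, against 70 to 75 elsewhere. The comparison of the groups is therefore also given without CTR 1 for some of the genes.

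The 85 genes summed to 12624 ± 1030 TPM in CKO and 11954 ± 1116 TPM in CTR (SD, n = 3 each), or 1.07% to 1.37% of all TPM in a library. The sum was lowest in CTR 1 at 10739 TPM and highest in CKO 2 at 13717 TPM, and the groups overlapped. Over all 6 libraries 60 genes were above 0 in every one, 18 in some, and 7 in none. A mean of at least 100 TPM was reached by 30 genes, at least 10 TPM by 52 genes, and the 2 highest were Hspa8 and Hsp90aa1.

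By class, cytosolic HSP70 gave the largest sum at 2827 ± 407 TPM (SD, n = 6), 23.0% of the total. J-domain proteins of class C followed at 2209 ± 141 TPM (18%), HSP90 at 2174 ± 330 TPM (17.7%) and CCT at 1811 ± 128 TPM (14.7%). Class B J-proteins summed to 928 ± 69.5 TPM, BAG proteins with St13 to 783 ± 90.1 TPM, the mitochondrial and luminal HSP60, HSP10 and HSP70 genes to 705 ± 67.2 TPM, class A J-proteins to 383 ± 116 TPM, HSP110 to 242 ± 57.5 TPM and small heat shock proteins to 226 ± 38.9 TPM. J-domain proteins of classes A to C together reached 3521 ± 181 TPM (28.6%), so that their ratio to cytosolic HSP70 was 1.26 ± 0.16 and ranged from 1.05 to 1.47. Class C and HSP90 differed by less than their spread, as did BAG with St13 and the mitochondrial and luminal genes, and HSP110 and the small heat shock proteins.

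The cytosolic HSP70 sum was almost all Hspa8, the constitutive HSC70, which is also known to strip clathrin from vesicles. Hspa8 (ENSMUSG00000015656.16, chromosome 9, 40800984 to 40810087, plus strand, GRCm38) stood at 2537, 3046 and 2038 TPM in CKO 1 to 3 and at 2183, 2812 and 2410 TPM in CTR 1 to 3. The groups overlapped, with the highest and the lowest value both in CKO. Of the 31-base words of its annotated transcripts, 43.5% also occur in another annotated gene, mostly processed pseudogenes, but the 7 such copies listed in the files summed to a mean of only 1.24 TPM. The next HSP70 gene was Hspa2, known for its role in male germ cells and listed here on chromosome 12. It stood at 250.2, 252 and 249.7 TPM in CKO and 242, 299 and 264 TPM in CTR, which made it among the least variable of the abundant genes (coefficient of variation 8.0%). Hspa8 exceeded Hspa2 by 8.16 to 12.1 times in the 6 libraries. Hspa14, a ribosome-associated HSP70, was at 58.9, 66.1 and 57.7 TPM in CKO and 0.66, 72.5 and 32.4 TPM in CTR, so that CTR 1 was far below the rest.

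The stress-inducible pair Hspa1a and Hspa1b was low, with means below those of Hspa8, Hspa2 and Hspa14. Hspa1a stood at 19.5, 9.79 and 6.82 TPM in CKO and 9.2, 8.53 and 1.73 TPM in CTR. Hspa1b stood at 2.12, 3.81 and 4.41 TPM in CKO and 8.50, 5.04 and 2.92 TPM in CTR. Both genes were above 0 in every library and neither separated the groups. They lie side by side on the minus strand of chromosome 17 (Hspa1a from 34969190 to 34972156, Hspa1b from 34956436 to 34959238, GRCm38). Since 65.4% and 68.0% of their transcript words are shared with another gene, for most of these with each other, the split of reads between them is uncertain and their sum is the safer value. The sum was 15.5 ± 5.4 TPM in CKO and 12 ± 6.7 TPM in CTR (SD, n = 3 each). Hspa8 exceeded that sum by 118 to 519 times, with a median of 194 over the 6 libraries.

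The upstream sequences of these genes are shown because the known element of heat shock factor is what textbook inducible genes share. They are the RefSeq windows of GRCm38.p6, 250 bases before the start, written 5′ to 3′ on the strand of the gene. Capitals mark a 2-unit heat shock element, GAANNTTC or TTCNNGAA, which read the same on both strands.
Hspa1a: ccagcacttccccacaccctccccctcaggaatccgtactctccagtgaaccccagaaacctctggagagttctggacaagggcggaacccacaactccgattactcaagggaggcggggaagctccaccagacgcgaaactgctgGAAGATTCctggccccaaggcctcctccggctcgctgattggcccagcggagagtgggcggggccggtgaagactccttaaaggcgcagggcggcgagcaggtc
Hspa1b: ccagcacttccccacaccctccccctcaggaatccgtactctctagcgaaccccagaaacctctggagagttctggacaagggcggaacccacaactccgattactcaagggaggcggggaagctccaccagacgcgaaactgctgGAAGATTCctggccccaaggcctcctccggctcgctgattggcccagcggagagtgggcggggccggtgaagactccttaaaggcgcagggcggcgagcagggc
The windows are chr17:34972157-34972406 and chr17:34959239-34959488, both on the minus strand. They differ at 3 of 250 positions (98.8% identical), and in both the marked element ends 96 bases before the start. Hsph1, an inducible HSP110, and Hspe1, the mitochondrial HSP10, are shown as stretches of 30 bases around the match. In Hspe1 the capitals mark a run that holds the longer 3-unit element, GAANNTTCNNGAA or TTCNNGAANNTTC, of which the 2-unit element is a part, and in the second stretch of Hsph1 they mark the X-box core GTNNCNNNNGNNAC, a motif known from the promoters of ciliary genes.
Hsph1, heat shock element: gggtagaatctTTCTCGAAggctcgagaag
Hsph1, X-box core: gctgccctGTCACCATGGCAACtcaggccg
Hspe1, heat shock element: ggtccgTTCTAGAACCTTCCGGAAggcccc
These lie at chr5:149636351-149636380 and chr5:149636406-149636435 on the minus strand and at chr1:55088053-55088082 on the plus strand.

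RefSeq windows were found for 68 of the 85 genes. Those without one include Hspa8, Hsp90ab1 and St13 of the constitutive list and Hsp90aa1 of the inducible list. The 2-unit element was present in 12 of these 68 (17.6%), against 12.9% of all 27025 windows in the table. Among the inducible list it was present in 4 of 6 windows, those of Hspa1a, Hspa1b, Hspb1 and Hsph1, but not those of Dnajb1 and Bag3. The Hspa1a and Hspa1b windows are near copies of each other. Among the constitutive list it was present in 0 of 4. The 3-unit element was present in 0.4% of all windows and in 2 of the 68 (2.94%), those of Hspe1 and Dnajb6. It was present in 0 of 6 inducible and 0 of 4 constitutive windows. The X-box core was present in 7 of 68 windows (10.3%), against 5.8% of all windows. It was absent from those of Dnajb13 and Dnajc27, the J-proteins linked to cilia. A match is a description of the letters in these windows and not a measure of binding.

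The inducible list was uneven in level. It summed to 1646 ± 76.5 TPM in CKO and 1373 ± 305 TPM in CTR, and the constitutive list to 4348 ± 562 and 4094 ± 577 TPM (SD, n = 3 each). The ratio of constitutive to inducible sums was 2.84 ± 0.39 over the 6 libraries and ranged from 2.18 in CKO 3 to 3.32 in CTR 1. Most of the inducible sum was Hsp90aa1. Without it, and with Hspa8 kept in the constitutive sum, the ratio was 18.6 ± 4.66 with a median of 17.1. It was 27.8 in CTR 1 and 15.4 to 18.2 in the other libraries. Apart from Hsp90aa1, the inducible genes ranged from Hsph1 at a mean of 117 TPM and Dnajb1, the main stress-inducible HSP40, at 91.5 TPM to Hspb1 at 10.6, Hspa1a at 9.26, Bag3 at 6.37 and Hspa1b at 4.47 TPM. Dnajb1 stood at 99.1, 101 and 93.4 TPM in CKO and 55, 121 and 79.7 TPM in CTR. The constitutive list was as uneven, from Hspa8 down to Dnaja2 at 54.7 TPM and Hspa4 at 8.19 TPM.

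In HSP90 the inducible form exceeded the constitutive one in every library. Hsp90aa1 (ENSMUSG00000021270.13, chromosome 12, 110690605 to 110702728, minus strand) stood at 1338, 1333 and 1496 TPM in CKO and 922, 1351 and 1184 TPM in CTR. Hsp90ab1 (ENSMUSG00000023944.14, chromosome 17, 45567775 to 45573271, minus strand) stood at 878, 1052 and 928 TPM in CKO and 615, 991 and 952 TPM in CTR. The ratio of Hsp90aa1 to Hsp90ab1 was 1.42 ± 0.15 (SD, n = 6) and ranged from 1.24 to 1.61, a narrower spread than that of either gene. CTR 1 was the lowest library for both genes, and the ratio there, 1.5, was inside the range of the others. Of the transcript words of Hsp90aa1, 51.4% also occur in another gene, and its 3 listed copies summed to 0.77 TPM.

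Among the exchange factors of the HSP110 family, Hsph1 and Hspa4l were abundant and Hspa4 was not. Hsph1 stood at 117, 143 and 108 TPM in CKO and 49.6, 146 and 138 TPM in CTR. Hspa4l, which is prominent in testis, stood at 93.2, 114 and 93.4 TPM in CKO and 99.9, 149 and 150.0 TPM in CTR. Hspa4, listed as constitutive, stood at 11.7, 18.7 and 2.62 TPM in CKO and 5.76, 3.92 and 6.42 TPM in CTR. Hspa4l thus exceeded Hspa4 in all 6 libraries, by 6.10 to 38.0 times, with a median of 20.4. Of the words of the Hspa4l transcripts, 0.64% are shared with another gene.

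**Figure D1:**
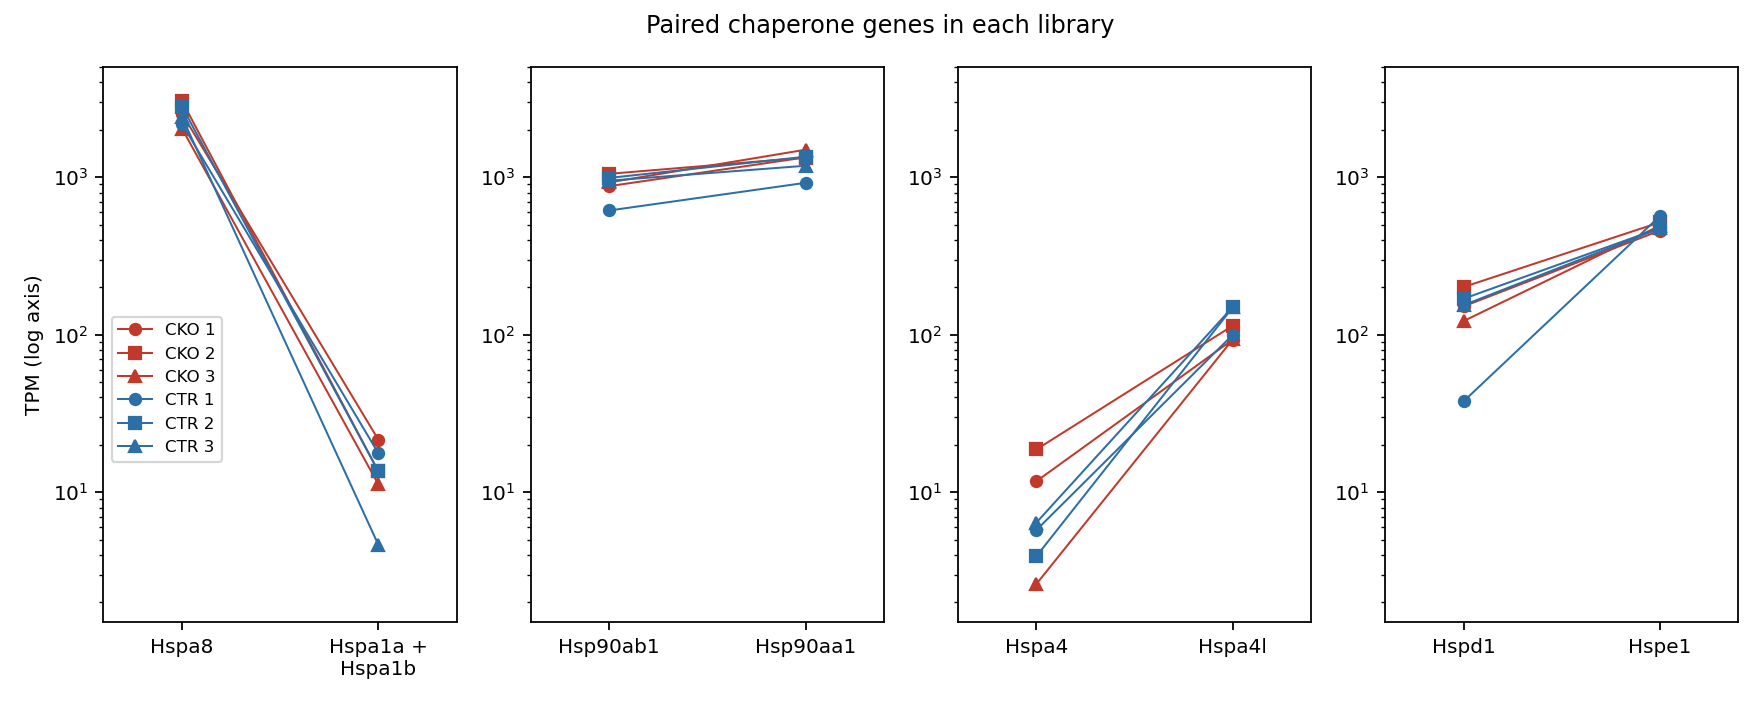
TPM of 4 pairs of related chaperone genes on a log axis, with 1 line for each library (red CKO, blue CTR). Every line falls from Hspa8 to the sum of Hspa1a and Hspa1b, and rises from Hsp90ab1 to Hsp90aa1, from Hspa4 to Hspa4l and from Hspd1 to Hspe1, the last most steeply in CTR 1.

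The other exchange factors and HSP70 cochaperones were led by Bag1 and St13. Bag1, an exchange factor that links HSP70 to the proteasome, stood at 497, 329 and 309 TPM in CKO and 402, 345 and 346 TPM in CTR, highest in CKO 1 and next in CTR 1. St13, known as HIP, which slows the release of ADP from HSP70, stood at 279, 301 and 302 TPM in CKO and 181, 278 and 295 TPM in CTR, with only CTR 1 well below the rest. Bag2, an inhibitor of the ligase CHIP, reached a mean of 97.9 TPM. Bag3, the stress-inducible member that works with Hspb8 in autophagy, was at 6.37 TPM while Hspb8 was at 140 TPM. Hspb8 stood at 150.4, 177 and 118 TPM in CKO and 100.1, 179 and 118 TPM in CTR, and the other abundant small heat shock protein, Hspb6, ranged from 34.0 to 113 TPM. Hspb1, the classical HSP27, ranged from 0 in CTR 1 to 20.4 TPM in CKO 1, and Hspb3 and Hspb9 were at 0 in all 6 libraries.

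The J-domain proteins were led by a mitochondrial one. Dnajc15 (ENSMUSG00000022013.3, chromosome 14, 77820681 to 77875125, minus strand), a J-protein of the inner mitochondrial membrane, stood at 976, 906 and 859 TPM in CKO and 1148, 768 and 746 TPM in CTR. It made up more of the J-protein sum than any other gene and its highest and lowest values were both in CTR. Behind it in class C were Dnajc8, linked to splicing, at a mean of 241 TPM, Dnajc19, part of the mitochondrial import motor, at 231 TPM, Dnajc9, a histone chaperone, at 158 TPM, Dnajc3, of the endoplasmic reticulum, at 144 TPM and Dnajc7 at 107 TPM. Dnajc24, which takes part in making diphthamide, was just under at 98.2 TPM. Dnajc5, the synaptic vesicle protein CSP alpha, was at 2.58 TPM and Dnajc6, the auxilin of clathrin uncoating, at 6.70 TPM.

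Class A and B held J-proteins that serve HSP70 in the cytosol, but also members of mitochondria, the endoplasmic reticulum and cilia. Dnaja1 stood at 164, 179 and 126 TPM in CKO and 131, 152 and 154 TPM in CTR. Dnaja4 had nearly the same mean, 151 TPM, but was the least even of the 30 genes with at least 100 TPM (coefficient of variation 49.1%), at 91.9, 210.0 and 146 TPM in CKO and 37.6, 191 and 228 TPM in CTR. Dnaja2 ranged from 24.6 to 77.7 TPM and the mitochondrial Dnaja3 from 17.1 to 45.2 TPM. In class B, Dnajb6, known for holding back the aggregation of polyglutamine proteins, was the most even gene of all 85 (coefficient of variation 4.41%), at 247, 265 and 243 TPM in CKO and 273, 252 and 261 TPM in CTR. Dnajb12, anchored in the endoplasmic reticulum membrane, was at a mean of 153 TPM, Dnajb2 at 129 TPM and Dnajb4 at 71.5 TPM.

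Of the J-proteins linked to cilia, Dnajb13 was abundant and Dnajc27 was nearly absent. Dnajb13 (ENSMUSG00000030708.14, chromosome 7, 100501716 to 100514960, minus strand) encodes a protein of the radial spokes of motile cilia. It stood at 117, 165 and 159 TPM in CKO and 109, 161 and 125 TPM in CTR, ranked with the general cochaperones Dnaja1 and Dnajb2, and did not separate the groups. Dnajc27, a Rab-like protein with a J-domain, had 18, 1 and 293 counts in CKO and 0, 38 and 0 in CTR, or a mean of 1.13 TPM. Most of its signal thus came from CKO 3. Dnajb7, Dnajb8, Dnajc5b, Dnajc5g and Cct8l1 were at 0 in all 6 libraries. Hspa2, Hspa4l and Dnajb13, all known from testis, were above 90 TPM in every library. Not every testis-linked gene of the set was abundant: Cct6b, the testis form of a CCT subunit, was at a mean of 1.58 TPM.

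The CCT subunits, which assemble in equal numbers, were all abundant apart from the testis form Cct6b. Cct7 led at 322, 427 and 308 TPM in CKO and 435, 471 and 417 TPM in CTR, and Cct8 followed at 345, 287 and 296 TPM in CKO and 284, 277 and 360 TPM in CTR. The means of the others fell from Cct5 at 267 TPM through Cct3 at 240 TPM, Cct4 at 199.6 TPM, Cct6a at 162 TPM and Tcp1 at 145 TPM to Cct2 at 91.0 TPM. From Cct8 to Tcp1 each step was smaller than the larger SD of its 2 genes, whereas Cct7 lay above and Cct2 below their neighbours by more than that. Cct6b had 161 counts in CKO 1, 18 in CKO 2 and 0 in the other 4 libraries. The other chaperonin, of mitochondria, was unequal in its 2 parts: the cap Hspe1 stood at 459, 517 and 493 TPM in CKO and 567, 476 and 474 TPM in CTR, and the barrel Hspd1 at 151, 201 and 122 TPM in CKO and 37.8, 169 and 154 TPM in CTR. The 2 genes lie head to head on chromosome 1, with starts that overlap in the annotation. The ratio of Hspe1 to Hspd1 was 15.0 in CTR 1 and 2.57 to 4.04 in the other 5 libraries.

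Spread between libraries depended on level much as in other genes. The median coefficient of variation was 17.3% for the 30 chaperone genes with at least 100 TPM (19.8% for all 1565 genes at that level), 41.2% for the 22 between 10 and 100 TPM (46.1% for 4527 genes) and 90.7% for the 20 between 1 and 10 TPM (110% for 6622 genes). A library at 3 counts or fewer occurred in 0, 1 and 11 of these genes. Dnajb3, for example, had 59, 48 and 196 counts in CKO and 0, 147 and 0 in CTR, and Hspa1l had 66 counts in CTR 2 and 0 elsewhere. Levels under 10 TPM were therefore not precise enough here to order single genes.

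Library CTR 1 was the lowest of the 6 libraries for 11 of the 30 chaperone genes with at least 100 TPM (36.7%), against 21.9% of all 1565 genes at that level, and was the highest for 4. Against the mean of the other 5 libraries it was lower in 23 of the 30, with a median log2 difference of -0.24 (0.03 over all 1565 genes). The largest such differences were -2.21 in Dnaja4, -2.08 in Hspd1, -1.39 in Hsph1, -0.88 in Dnajc7, -0.68 in St13 and -0.64 in Hsp90ab1. Below 100 TPM, Hspa9, the mitochondrial HSP70, was at 10.4 TPM in CTR 1 and 46.7 to 92.9 TPM elsewhere, and Dnajb11, of the endoplasmic reticulum, at 15.66 and 54.7 to 115 TPM. Dnajb12 and Dnajc15 were higher in CTR 1, by 0.44 and 0.43 on the log2 scale. Across the 30 genes the deviation of CTR 1 fell with counts per TPM, a stand-in for transcript length (Spearman's rho = -0.52, and -0.41 over the 1565 genes, as descriptions of 1 library). In the other 5 libraries rho ranged from -0.29 in CKO 1 to 0.49 in CTR 2 (-0.06 and 0.29 over the 1565 genes). Each of those was set against a mean that includes CTR 1. The immediate early genes, which respond to dissociation, summed to 612 TPM in CTR 1 and 325 to 447 TPM in the other libraries. Most of the sum was Dusp1, at 468 TPM in CTR 1 and 209 to 306 TPM elsewhere. The other genes of that list did not move together. Jun was lowest in CTR 1 (1.62 TPM, against 6.78 to 26.2 TPM elsewhere). Ier2 and Klf6 were highest in CTR 1 (52.3 and 33.2 TPM). The part of transcript length or of these genes in the chaperone values was not tested.

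**Figure D2:**
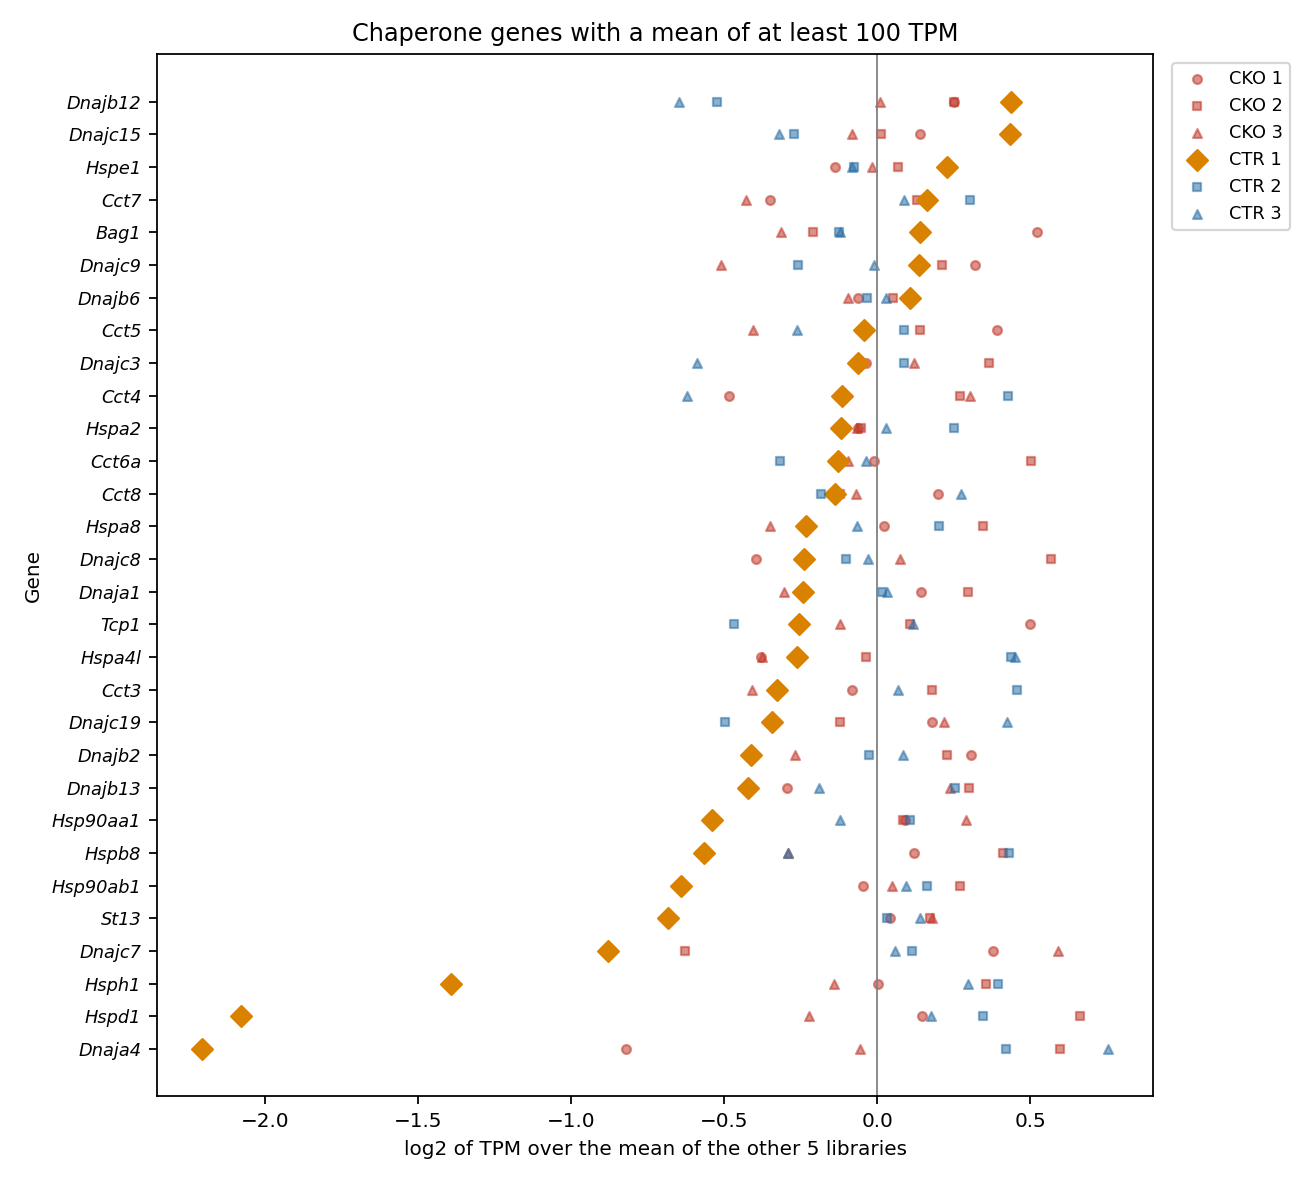
Log2 of the TPM of each library over the mean of the other 5, for the 30 chaperone genes with a mean of at least 100 TPM, ordered by CTR 1 (orange diamonds; red CKO, other blue CTR). CTR 1 lies at -2.21 for Dnaja4, -2.08 for Hspd1 and -1.39 for Hsph1, and is the highest library for Dnajb12, Dnajc15, Hspe1 and Dnajb6.

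The comparison of CKO with CTR asked whether deletion of Ccn1 was followed by a change in these genes. By edgeR's quasi-likelihood test with Benjamini-Hochberg adjustment over all 11574 genes tested, no chaperone gene was called at an adjusted p of 0.05. Of all genes tested, 0 were called (0%), and these include the deleted gene: Cyr61, at a log2 difference of -2.22 ± 0.38, had an unadjusted edgeR p of 0.000415 and was not called, while DESeq2 called it (adjusted p = 4.1e-06). The lack of a call thus does not show that a gene was unchanged. At an unadjusted p under 0.05 there were 318 genes (2.75%) and 0 of the 71 chaperone genes that passed the filter on low counts. The 14 that did not pass it were each at 0 in at least 1 library. DESeq2 called 199 of 11890 genes (1.67%), among them 1 chaperone gene, Bag4 (DESeq2 adjusted p = 0.0219). Bag4, an exchange factor also known as SODD, had 241, 1 and 156 counts in CKO and 0 in each CTR library, so that its call rests on 2 libraries, and edgeR's filter left it out. With every gene that had a count kept, edgeR called no chaperone gene. In bulk samples, fewer cells of a type and less RNA per cell cannot be told apart.

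Of the 71 tested genes, 49 (69.0%) were higher in CKO, against 50.3% of all genes tested, and the median log2 difference was 0.11 (0.0044 over all genes). Of the 30 genes with at least 100 TPM, 24 were higher in CKO with a median of 0.14, against 735 of 1565 genes at that level with a median of -0.01. Without CTR 1, 48 of 73 tested chaperone genes were higher (52.1% of all genes tested) and the median was 0.11 (0.04 over all genes). With the other libraries left out one by one, the median ranged from 0.10 without CKO 2 to 0.26 without CTR 2, and the share that was higher fell to 60.6% without CKO 1. Genes of this set are not independent of each other, so these counts are descriptions. No class sum separated the groups. The largest gap was in HSP90, at 2342 ± 111 TPM in CKO and 2005 ± 418 TPM in CTR (SD, n = 3 each), where CTR 1 was at 1538 TPM and the other 2 controls at 2342 and 2135 TPM.

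**Figure D3:**
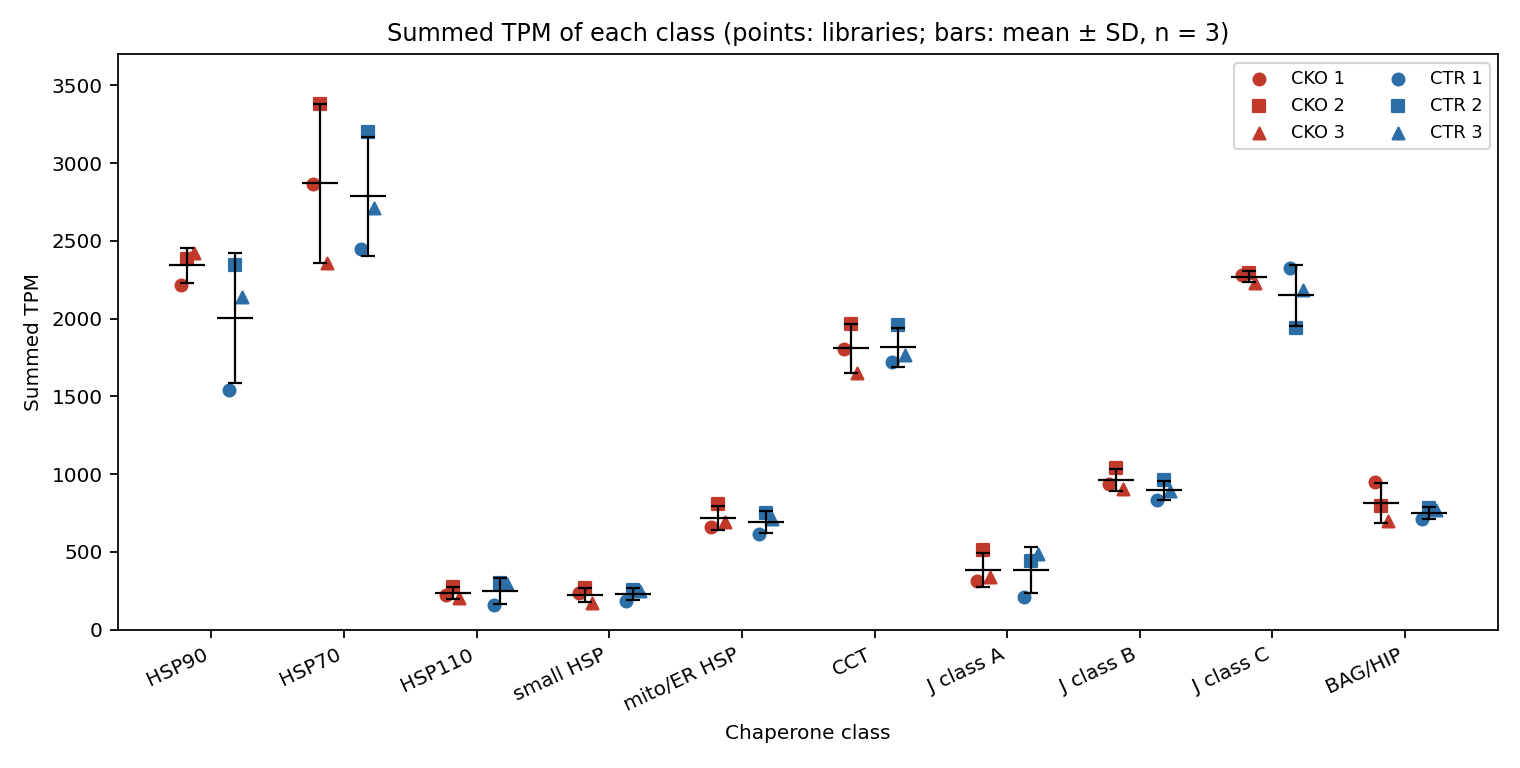
Summed TPM of each chaperone class in each library (red CKO, blue CTR, marker shape by replicate number), with bars for mean ± SD of 3 libraries. In every class the points of the groups overlap, and the lowest HSP90 point is CTR 1 at 1538 TPM.

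Of the single genes, Hsp90aa1 had the smallest unadjusted p (0.0591 by edgeR), with a log2 difference of 0.27 ± 0.12 (SE) that became 0.19 without CTR 1. Cct7 came next, with a log2 difference of -0.32 ± 0.16 and an unadjusted edgeR p of 0.0753. It was followed by Dnajc13, an endosomal J-protein, at 4.60 ± 2.51, which rests on 582 counts in CKO 3 and is not a level that the other libraries share (17 and 128 counts in the other CKO libraries, 1, 29 and 0 in CTR). Hspa4l was at -0.27 ± 0.15, Dnajc4 at -0.84 ± 0.51 and Tcp1 at 0.35 ± 0.22. Of the next genes by p, Dnajc3 (0.26 ± 0.20) and Cct6a (0.25 ± 0.19) were abundant and overlapped between the groups. Dnajc6 had 863, 757 and 329 counts in CKO and 3, 430 and 4 in CTR (2.17 ± 1.70), so CTR 2 lay inside the CKO range. Dnajc2, the ribosome-bound partner of Hspa14, was at -0.62 ± 0.54. The most abundant genes had smaller standard errors. Hspa8 was at 0.04 ± 0.14 (0.02 without CTR 1), Hspa2 at -0.10 ± 0.14 (-0.10) and Hsp90ab1 at 0.17 ± 0.15 (0.04). Dnajc15 was at 0.01 ± 0.25 (0.34 without CTR 1), Hspe1 at -0.06 ± 0.20 (0.11) and Dnajb6 at -0.07 ± 0.17 (0.03). For the 4 inducible genes at low levels the errors were large: 0.86 ± 0.92 for Hspa1a, -0.71 ± 1.36 for Hspa1b, 1.03 ± 2.14 for Hspb1 and 0.41 ± 1.28 for Bag3. Changes of that size could not be told from the spread between libraries in these 4 genes. Dnajb13 was at 0.17 ± 0.21.

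Leaving out CTR 1 moved genes that were low or high in that library. Hsph1 went from 0.18 ± 0.33 to -0.13, Hspd1 from 0.43 ± 0.46 to 0.03, Dnaja4 from 0.01 ± 0.56 to -0.43 and Dnajb1 from 0.22 ± 0.27 to 0.03. St13 went from 0.24 ± 0.17 to 0.11 and Dnajc7 from 0.33 ± 0.33 to 0.15. Of the genes highest in CTR 1, Dnajb12 went from 0.24 ± 0.30 to 0.63, with an unadjusted edgeR p of 0.0208 and no call after adjustment. Dnajc2 went from -0.62 ± 0.54 to -0.16 and Hspa1b from -0.71 ± 1.36 to -0.14. Bag1 went from 0.04 ± 0.24 to 0.20. Cct7 (-0.27), Hspa4l (-0.32) and Tcp1 (0.43) moved less. The level in CTR 1 did not set these moves apart. Against the other libraries CTR 1 was at a log2 of 0.14 in Bag1 and 0.16 in Cct7.

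**Figure D4:**
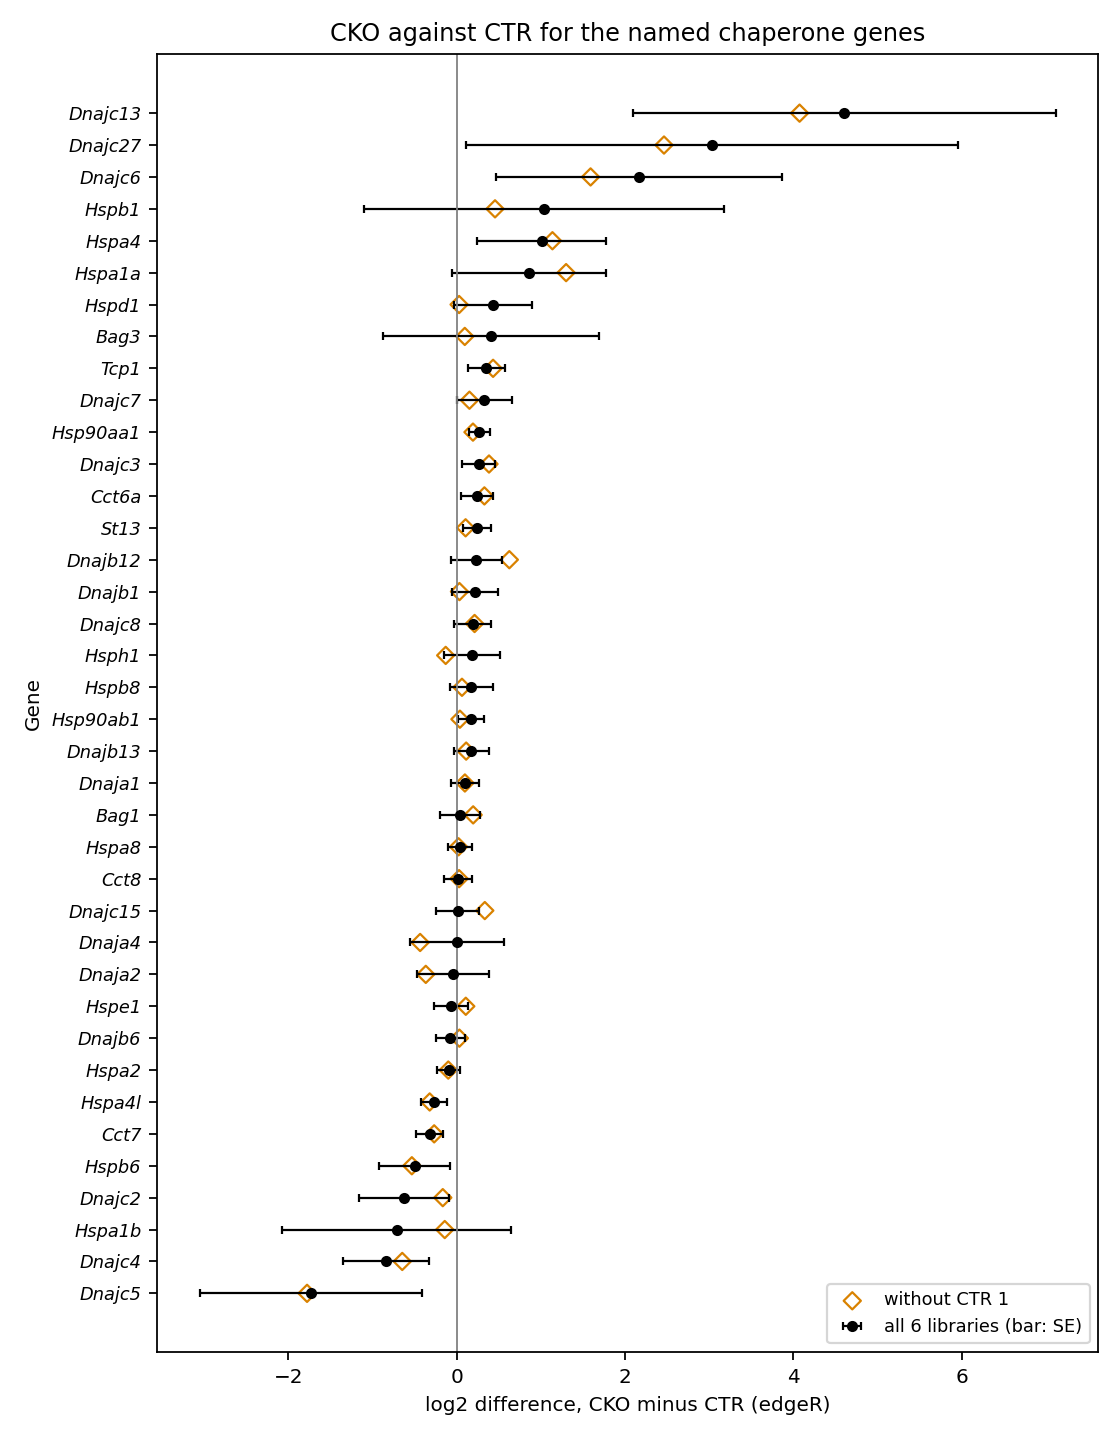
Log2 difference between CKO and CTR by edgeR for the 38 named chaperone genes (points, all 6 libraries, with bars of 1 SE) and the same without CTR 1 (open diamonds). No gene was called, and the widest bars belong to genes under 10 TPM such as Dnajc27 and Dnajc13.

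A few genes had TPM values that did not overlap between the groups. Of the 71 tested, Dnajc11 and Dnajc17 were higher in all CKO libraries, against 5.01% of all genes tested, and Dnajc4 and Dnajc5 were lower in all, against 4.5%. At 2 of 71 each, these counts are no larger than the background. Dnajc17, linked to splicing, stood at 43.8, 75.0 and 56.9 TPM in CKO and 42.2, 41.6 and 33.0 TPM in CTR. Dnajc4 stood at 52.8, 36.2 and 34.6 TPM in CKO and 87.7, 56.2 and 84.7 TPM in CTR. Dnajc11, of the mitochondrial contact sites, and Dnajc5 were each under 11 TPM in every library. The sum of 5 neuroblast markers also separated the groups, at 7.7 ± 0.8 TPM in CKO and 18.8 ± 8.7 TPM in CTR (SD, n = 3 each). It ranged from 7.1 to 8.7 TPM in CKO and from 9.3 to 26.2 TPM in CTR. The single markers did not all go that way. Tubb3 was at 0 in all CKO libraries and CTR 3, and Dcx reached 6.5 TPM in CTR 1 and 0.09 TPM or less elsewhere. Sox11 was above 0 in all 6 and overlapped between the groups. Dlx1 and Dlx2 had higher means in CKO (1.78 and 1.31 TPM) than in CTR (1.34 and 0.84 TPM). The part of these markers in the values above was not tested.

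No gene that works with these chaperones was called in the same fit, which called 0 of all 11574 genes tested (0%). The lack of a call there does not show that a gene was unchanged. Of 16 tested partners of HSP90 and HSP70, 8 were higher and 8 lower in CKO, with 0 called (50.3% of all genes tested were higher). Their most abundant gene, Ptges3, which encodes the HSP90 cochaperone p23, was close to Hsp90aa1 in level at 1217, 1325 and 1512 TPM in CKO and 1294, 1252 and 1463 TPM in CTR. Ahsa1, the activator of the HSP90 ATPase, was at a mean of 319.5 TPM. Hspbp1, an exchange factor of HSP70, was at 229.5, 169.5 and 126 TPM in CKO and 98.0, 112 and 152 TPM in CTR (log2 0.54 ± 0.28), and Chordc1 was at -0.58 ± 0.43. The heat shock factors Hsf1 and Hsf2 were at means of 39.7 and 19.3 TPM, and Hsf4 was at 0 in all 6 libraries.

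Prefoldin and its relatives hand clients to CCT. Of 11 such genes tested, 6 were higher and 5 lower in CKO (50.3% of all genes tested were higher), with 0 called, as over all genes. Pfdn2 did not overlap between the groups, at 77.0, 58.5 and 59.2 TPM in CKO and 26.1, 44.4 and 44.7 TPM in CTR (log2 0.78 ± 0.35), and Pdcl3, a phosducin-like cofactor of CCT, was lower in every CKO library (log2 -0.51 ± 0.28). The most abundant prefoldin genes were Pfdn5, at 282 and 281 TPM in CKO and CTR, and Pfdn1, at 226 and 260.1 TPM.

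The genes that assemble ciliary dynein, together with the BBS genes related to CCT, were split 7 higher and 9 lower of 16 tested. Over all genes tested 50.3% were higher, and 0 were called in this list as in the whole fit. The most abundant were Pih1d2, at 407, 270.0 and 476 TPM in CKO and 396, 336 and 578 TPM in CTR, and Ruvbl2, an ATPase of the R2TP complex that acts with HSP90. Ruvbl2 stood at 328, 296 and 303 TPM in CKO and 364.5, 374 and 409.5 TPM in CTR, with every CKO library below every CTR library (log2 -0.31 ± 0.15). Dnaaf2, a dynein assembly factor that binds HSP70, was at 0.1, 1.1 and 0.0 TPM in CKO and 11.9, 7.3 and 6.0 TPM in CTR (log2 -4.46 ± 2.08, unadjusted p = 0.0651 by edgeR). The groups did not overlap, but the level was low and the gene was not called. In this list 0 of 16 tested genes were higher and 2 of 16 lower in all CKO libraries. In the prefoldin list 1 of 11 was higher and 1 of 11 lower, and in the list of HSP90 and HSP70 partners 0 of 16 in either direction, against 5.01% and 4.5% of all genes tested.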

How the data were processed

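Ependymal cells of 6 samples (3 CKO, 3 CTR) were profiled by RNA sequencing. Groups and replicate numbers were read from the sample titles. Per the submitters' processing notes, CASAVA 1.8, cutadapt 1.11 and kallisto 0.42.5 were used. No build or annotation is given in the sources used here. Per the file headers, the authors deposited an estimated count for each gene, which is not normalized and is shared between similar transcripts. Per the file headers, they also deposited a TPM value, scaled for transcript length and library size. Estimated counts were rounded to whole numbers. Genes were kept by filterByExpr (11574 of the 19684 with a count), scaled by TMM and tested by edgeR 4.0.16 (quasi-likelihood, robust, genotype as the only term, Benjamini-Hochberg adjusted p of 0.05) in R 4.3.3. The tests were checked on simulated data. Alternatives were DESeq2 1.42.0, limma-voom and limma 3.58.1 on log2 TPM with a pseudocount of 1 or 0.1, other scalings and filters, a block for the replicate number, and leaving out single libraries. Class sums and ratios are of TPM and have no test.

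The chaperone genes and all lists were chosen with earlier results of these data known. The genes named with values in the comparison are the 2 most abundant of each class, the inducible, constitutive and cilia-linked lists, the 8 further genes with the smallest unadjusted edgeR p, for each partner list the 2 most abundant and the 2 with the smallest p, and the deleted gene. Others named, such as Bag4, Hspa14, Dnajc11 and Dnajc17, were chosen after their values were seen. Gene IDs, cut before the version, were looked up in GENCODE M21 (GRCm38), which held 99.1% of them and all 85 chaperone genes, and gave the coordinates. Shared sequence was counted as 31-base words of GENCODE transcripts. Promoter windows are RefSeq's for GRCm38.p6, the first listed for each symbol, and both strands were searched.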

Additional observations from a re-analysis of the deposited data

How the results depend on the processing

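The call of no chaperone gene held in all settings tried with edgeR and limma, including each library left out in turn (0 genes called in each). DESeq2 called 199 genes of all tested and 1 chaperone gene, Bag4, and a filter at a mean of 50 CPM gave 2 genes of all, none a chaperone. The cause was not tested. Same-numbered samples did not deviate together (correlations 0.008, 0.031 and 0.015). With 3 samples in a group, this cannot exclude a pairing that the labels do not state. The replicate block gave 0 calls and 232 genes at an unadjusted p under 0.05. Of 50 genes with a test, 35 kept their direction in every setting. Dnaja4 reversed under DESeq2 (-0.0001) and at 50 CPM (-0.0011). Dnaja2 reversed under voom (0.021), log2 TPM with a pseudocount of 1 (0.013) or 0.1 (0.015) and the replicate block (0.016). Pfdn5 reversed under voom (0.032), log2 TPM (0.053 and 0.054), library totals (0.0004) and the block (0.049). With single libraries left out, direction also turned, within -0.083 to 0.16 for Hspa8, -0.13 to 0.39 for Hsph1, -0.14 to 0.11 for Hspe1, -0.080 to 0.11 for Cct8, -0.43 to 0.41 for Dnaja4, -0.13 to 0.034 for Dnajb6, -0.13 to 0.34 for Dnajc15, -0.22 to 0.20 for Bag1, -0.024 to 1.73 for Bag3, -0.38 to 0.19 for Dnaja2, -0.42 to 9.77 for Dnajc27, -0.077 to 0.082 for Ptges3, -0.039 to 0.32 for Ahsa1, -0.26 to 0.16 for Pfdn5 and -0.38 to 0.045 for Pih1d2. Rescaling TPM to nuclear genes without ribosomal proteins raised class sums by construction, to 2556 (HSP90), 3324 (HSP70), 265 (small heat shock), 829 (mitochondrial and luminal), 2131 (CCT), 1092 and 2600 (J-proteins B and C) and 922 (BAG with St13), and left ratios unchanged. Precision was lowest for genes under 10 TPM, where library totals were similar but 17 of 26 genes had no more than 3 counts in some library. The cause was not tested.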
